A study of Mus musculus with 4 samples.

Results

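Transcripts of neutrophil granule and cytosolic proteins were examined in RNA sequencing libraries of mouse brain endothelial cells. The group was given as 9 symbols (Ngp, Ltf, Camp, Lcn2, S100a8, S100a9, Retnlg, Mpo and Elane), chosen from genotype differences already seen in these same libraries. They were looked up by symbol among the 20194 genes of the deposited tables. At E15 (embryonic day 15) 6 of them were listed, at E18 8, and at both stages 6. Lcn2 and Retnlg were listed only at E18, and the expression of Elane was not analysed here, so that only its promoter is described. Because the genotype values chose the genes, their differences are given as a description with no test.

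The series concerns the protein UCP2, a carrier of the mitochondrial inner membrane, in the endothelium of the developing brain. All libraries came from C57BL/6 mice. The wild-type group (WT) was set beside the group labelled UCP2f/f;Tie2-cre, called the knockout here, in which a floxed Ucp2 gene meets Cre recombinase driven by the Tie2 promoter. That promoter is active in endothelial cells and in most blood cells, so the deletion is not restricted to the endothelium. Each combination of genotype and stage was 1 library, with 15542930 (wild type) and 16328300 (knockout) reads in genes at E15 and 19075407 and 21992660 at E18. The labels do not state the isolation of the cells or any pooling of embryos. The design text of the series speaks of triplicates, but 1 library a group is analysed here, and whether each is a pool is unknown. Every ratio below therefore compares a pair of libraries with no replicate check, and its 95% interval (exact Clopper-Pearson) covers counting error only.

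All 12 endothelial markers looked up were listed in every library, with summed levels of 25777 and 28897 CPM (the usual count-per-megaread scale, computed on library totals) at E15, wild type first, and 26220 and 26010 CPM at E18. Ucp2 had 4285 and 2666 reads at E15 and 6696 and 3296 reads at E18. The E18 libraries also differed in sex: the Y-linked Ddx3y had 5826 wild-type and 0 knockout reads, and Xist 0 and 547. Genotype and sex therefore cannot be told apart at E18. Xist was present in both genotypes at E15, with 2549 and 2109 reads. Stage and sex therefore cannot be told apart between the wild-type libraries.

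Neutrophils store antimicrobial proteins in granules that form in sequence as the cells mature. Azurophil (primary) granules are made first and carry myeloperoxidase, encoded by Mpo, and serine proteases such as neutrophil elastase, encoded by Elane. Specific (secondary) granules follow and carry lactoferrin (Ltf), the cathelicidin peptide precursor (Camp), lipocalin-2 (Lcn2) and the cathelicidin relative Ngp. S100a8 and S100a9 encode the 2 chains of calprotectin, the abundant calcium- and zinc-binding protein of the neutrophil cytosol, and Retnlg a resistin-like secreted protein of mature neutrophils. In the fetus such cells arise mainly in the liver. In bulk RNA, fewer cells of a type and less of its RNA per cell cannot be told apart.

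Several of these genes lie close together. Camp (ENSMUSG00000038357, chromosome 9, 109847379 to 109849617, minus strand), Ngp (ENSMUSG00000032484, chromosome 9, 110419747 to 110423012, plus strand) and Ltf (ENSMUSG00000032496, chromosome 9, 111019271 to 111042767, plus strand) follow each other with gaps of 570.1 and 596.3 kb. S100a8 (ENSMUSG00000056054, chromosome 3, 90668978 to 90670035, plus strand) and S100a9 (ENSMUSG00000056071, chromosome 3, 90692632 to 90695721, minus strand) are 22.6 kb apart. Mpo (ENSMUSG00000009350) lies on chromosome 11 at 87793581 to 87804413, Lcn2 (ENSMUSG00000026822) on chromosome 2 at 32384633 to 32388252, and Retnlg (ENSMUSG00000022651) on chromosome 16 at 48872608 to 48874498. All are protein-coding genes, and the coordinates are those of the deposited tables, read as GRCm38.

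The bases before the start of the 4 genes with the clearest differences, and of Mpo, which went its own way at E18, are shown because transcription factors of the C/EBP and ETS families (C/EBP epsilon and PU.1 among them) direct granule gene expression in the neutrophil lineage. Sequences are from RefSeq (GRCm38.p6), 5′ to 3′ on the strand of the gene, and stop before the gene model begins. Capitals mark matches to the C/EBP motif TTGCNNAA or the ETS motif GAGGAA on either strand.
Ngp, plus strand, chr9:110419558-110419746: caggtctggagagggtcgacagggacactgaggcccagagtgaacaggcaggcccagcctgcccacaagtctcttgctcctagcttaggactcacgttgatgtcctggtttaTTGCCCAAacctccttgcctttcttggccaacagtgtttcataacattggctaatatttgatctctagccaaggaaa
Ltf, plus strand, chr9:111019042-111019270: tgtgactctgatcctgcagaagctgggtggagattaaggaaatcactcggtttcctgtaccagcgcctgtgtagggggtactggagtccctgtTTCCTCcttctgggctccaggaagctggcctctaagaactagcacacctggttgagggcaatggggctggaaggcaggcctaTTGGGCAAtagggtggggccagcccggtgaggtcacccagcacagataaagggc
S100a8, plus strand, chr3:90668821-90668977: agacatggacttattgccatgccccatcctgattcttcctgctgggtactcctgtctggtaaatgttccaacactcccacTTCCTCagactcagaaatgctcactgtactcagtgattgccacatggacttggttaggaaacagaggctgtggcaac
S100a9, minus strand, chr3:90695722-90695971: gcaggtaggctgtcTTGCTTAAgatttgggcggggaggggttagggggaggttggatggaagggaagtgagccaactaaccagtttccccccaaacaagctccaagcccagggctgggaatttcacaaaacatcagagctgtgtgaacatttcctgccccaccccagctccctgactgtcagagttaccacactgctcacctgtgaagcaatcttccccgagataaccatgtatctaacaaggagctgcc
Mpo, plus strand, chr11:87793534-87793580: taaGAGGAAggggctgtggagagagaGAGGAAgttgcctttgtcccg

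Over the full window of 300 bases around the RefSeq start (250 before and 50 after), all 9 genes had a promoter entry. The C/EBP motif was found in 5 of them (Ngp, Ltf, S100a9, Lcn2 and Retnlg), against 10.8% of 32851 promoters in the table. In Ngp it lay at bases -138 to -131 and again at -11 to -4 from the start site, and in Ltf at -75 to -68. The ETS motif was found in 5 (Ltf, S100a8, Mpo, Lcn2 and Elane), against 28.3% of all promoters. The NF-kappaB motif GGGNNNTTCC was found in 0 of the 9, against 5.56%. No matches of different motifs overlapped in these genes. The second Ngp match and a second ETS match of S100a8, at -36 to -31, lie inside the deposited gene models and so past the printed stretches. Such matches describe letters in the window, not bound sites, and the Camp window held none of the motifs.

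At E15 the knockout library held more of these transcripts than the wild-type library. Their summed reads numbered 42 for wild type against 205 for the knockout, or 2.70 and 12.6 CPM, a ratio of 4.65 (interval 3.32 to 6.64). Wild-type reads came mainly from Ltf, which supplied 30 of the 42. Knockout reads came mainly from Ngp and Ltf, with 83 and 69.

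Among the specific granule genes at E15, Ngp had 1 wild-type read and 83 knockout reads (0.0643 and 5.08 CPM), a ratio of 79.0 with an interval of 13.8 to 3158. Ltf, the iron-binding lactoferrin, had 30 and 69 reads (1.93 and 4.23 CPM), a ratio of 2.19 with an interval of 1.41 to 3.48. Camp had 0 and 5 reads, which on a floor of 3 reads for a count of 0 puts the knockout level at least 1.59-fold higher. The Camp interval reached down to 0.872 and so held 1. Ngp thus went from a single read to the most abundant of these transcripts, while lactoferrin differed less and Camp was near the limit of detection.

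For the cytosolic pair at E15, S100a8 had 0 wild-type and 7 knockout reads, at least 2.22-fold higher. S100a9 had 3 and 7 reads, a ratio of 2.22 with an interval of 0.507 to 13.3 that held 1. Mpo, the azurophil granule enzyme that makes hypochlorous acid, had 8 and 34 (0.515 and 2.08 CPM), a ratio of 4.05 with an interval of 1.84 to 10.1. Every listed gene had a higher CPM in the knockout library, but S100a8, S100a9 and Camp rested on at most 7 reads.

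**Figure D1:**
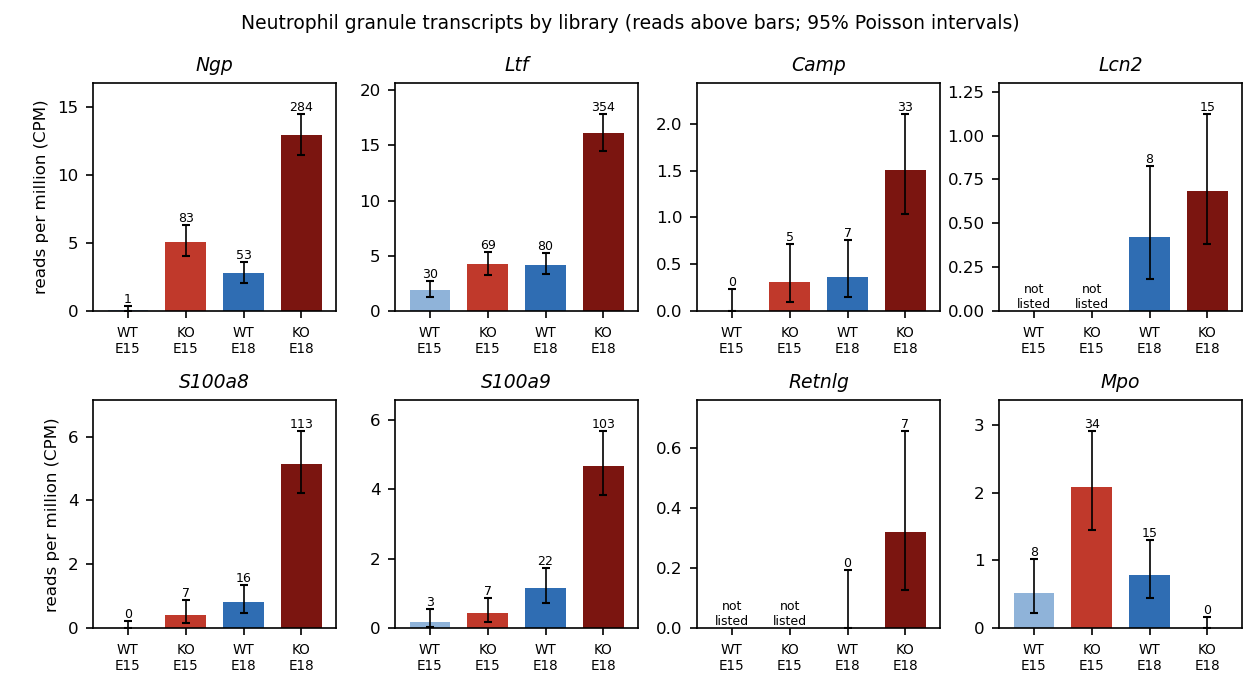
Level (CPM, linear axis from 0) of each listed neutrophil granule gene in the wild-type (WT) and knockout (KO) libraries at E15 and E18, with 1 library a bar, 95% Poisson intervals and the read count above each bar. The E18 knockout library was the highest for 7 of 8 genes, while Mpo was highest in the E15 knockout library and had 0 reads in the E18 knockout library.

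At E18 the levels were higher in both libraries, and the knockout library again stood above the wild type. The 8 listed genes had 201 wild-type and 909 knockout reads, or 10.5 and 41.3 CPM, a ratio of 3.92 (interval 3.36 to 4.59). Ngp had 53 and 284 reads (2.78 and 12.9 CPM), a ratio of 4.65 with an interval of 3.46 to 6.36. Ltf had 80 and 354 reads (4.19 and 16.1 CPM), a ratio of 3.84 with an interval of 3.00 to 4.96. Camp had 7 and 33 reads, a ratio of 4.09 with an interval of 1.78 to 11.0. These 3 specific granule genes therefore had similar ratios at E18, with overlapping intervals.

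The fourth specific granule gene, Lcn2, whose product binds bacterial siderophores, had 8 and 15 reads at E18, a ratio of 1.63 with an interval of 0.647 to 4.43 that held 1. S100a8 had 16 and 113 reads (0.839 and 5.14 CPM), a ratio of 6.13 with an interval of 3.61 to 11.1. S100a9 had 22 and 103 reads (1.15 and 4.68 CPM), a ratio of 4.06 with an interval of 2.54 to 6.76. Both chains of calprotectin were thus severalfold higher in the knockout library, and the intervals of their ratios overlapped. Retnlg had 0 and 7 reads, at least 2.02-fold higher.

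Mpo alone went the other way at E18, with 15 wild-type and 0 knockout reads, at least 5.77-fold lower. A count of 0 in the E18 knockout library allows up to 0.136 CPM. At E15 Mpo had been higher in the knockout library, so its genotype difference changed direction between the stages. Each side of that change rests on 1 pair of libraries, and the difference between the stages was not tested.

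**Figure D2:**
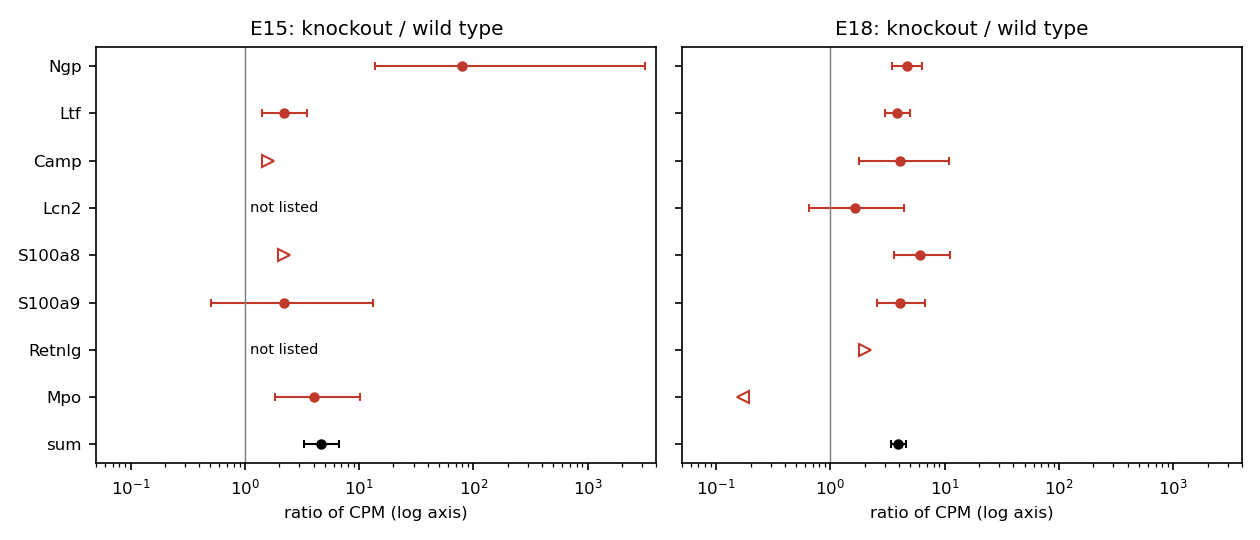
Ratio of CPM in the knockout library to that in the wild-type library (log axis) at E15 and E18 for each listed gene and for their sum, with exact 95% counting intervals. Open triangles are bounds against a floor of 3 reads where a library had 0 reads; the summed ratios were 4.65 at E15 and 3.92 at E18, and Mpo lay below 1 at E18.

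To set the genes beside the rest of the transcriptome, a log2 ratio of CPM with a pseudocount of 1 CPM was taken. To enter, a gene needed 1 CPM or more in 1 of the libraries compared and 50 reads over the pair; it was called at a 2-fold ratio. At E15, 2 of the 6 listed genes entered, and Ngp was called higher (log2 2.51), where 3.55% of 12633 genes were called higher and 3.32% lower. Ltf entered without being called (log2 0.83). At E18, 4 of 8 entered and were called higher, namely Ngp (1.88), S100a8 (1.74), Ltf (1.72) and S100a9 (1.40), where 2.88% of 12349 genes were called higher and 3.92% lower. The others were too weak to enter, and a weak gene enters mainly through the library where it is high. Since genotype values chose these genes, nothing is read from the counts.

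By the counting interval, which needs no filter, 4 of 6 genes lay above 1 at E15 (Ngp, Ltf, S100a8 and Mpo), as did 25.4% of all 19031 listed genes. At E18, 6 of 8 lay above 1, as did 28.3% of 17344 listed genes, and Mpo was 1 of the 34.4% below 1. The median log2 ratio of the listed granule genes was 0.67 at E15 and 1.14 at E18, against -0.01 and 0.00 over all tested genes. In the authors' deposited table, 5 of 6 genes at E15 and 7 of 8 at E18 were marked significant, where 22.9% and 25.4% of all listed genes carried that mark. S100a9 at E15 and Lcn2 at E18 were not marked in the authors' deposited table, which rests on 1 library a side.

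**Figure D3:**
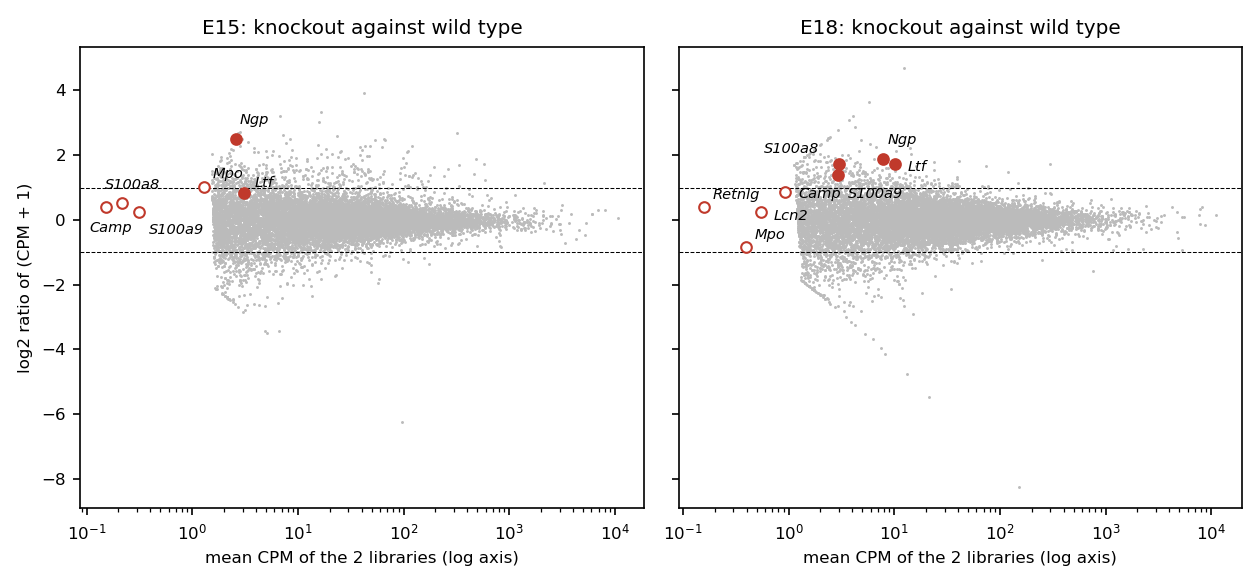
Log2 ratio of CPM plus 1 between the knockout and wild-type libraries (vertical axis) against the mean CPM of both libraries (log axis), for all genes that entered (grey) and the neutrophil granule genes (red; open where too weak to enter), with dashed lines at 2-fold. Ngp at E15 (2.51) and Ngp, S100a8, Ltf and S100a9 at E18 (1.40 to 1.88) lie above the upper line.

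Levels were also compared between stages within a genotype, over the 6 genes listed at both. In the wild-type libraries their sum went from 42 reads at E15 to 193 at E18 (2.70 and 10.1 CPM), a ratio of 3.74 (interval 2.67 to 5.36). In the knockout libraries it went from 205 to 887 reads (12.6 and 40.3 CPM), a ratio of 3.21 (interval 2.76 to 3.76). The E18 wild-type sum was thus near that of the E15 knockout library, and the E18 knockout library stood above the other 3. The wild-type libraries also differed in sex, with 2549 Xist reads at E15 and 0 at E18. Every wild-type stage ratio therefore carries that difference too.

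In wild type, Ngp was higher at E18 than at E15 by a ratio of 43.2 (interval 7.42 to 1738), which rests on the single read at E15. S100a9 was higher by 5.98 (interval 1.80 to 31.2) and S100a8, with 0 reads at E15, by at least 4.35-fold. Camp was at least 1.90-fold higher and Ltf 2.17-fold (interval 1.41 to 3.43). Mpo differed by a ratio of 1.53 with an interval of 0.608 to 4.16 that held 1. The intervals of both calprotectin genes, which began at 3.14 for S100a8 and 1.80 for S100a9, overlapped that of Ltf.

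In the knockout libraries S100a8 went from 7 to 113 reads, a ratio of 11.99 (interval 5.63 to 30.5), and S100a9 from 7 to 103, a ratio of 10.9 (interval 5.12 to 27.9). Camp was higher by 4.90 (interval 1.90 to 16.1), Ltf by 3.81 (interval 2.94 to 5.004) and Ngp by 2.54 (interval 1.98 to 3.29). Mpo went from 34 reads to 0, at least 15.3-fold lower. The intervals of S100a8 and S100a9 lay above those of Ltf and Ngp, while that of Camp overlapped both, and Mpo differed in the other direction.

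Of the 6 genes, 2 entered the wild-type stage comparison and Ngp was called higher at E18, where 3.08% of 12515 genes were called higher and 7.58% lower. In the knockout, 4 entered and were called higher (Ngp, Ltf, S100a8 and S100a9), where 4.34% of 12465 genes were called higher and 10.9% lower. Counting intervals lay above 1 for 5 of 6 genes in each genotype, against 21.2% of all 16181 genes in wild type and 25% in the knockout. Mpo in the knockout was among the 41.8% below 1. The stage comparisons also share libraries with the genotype comparisons, so they are no separate evidence. On library totals the median tested gene lay at -0.11 in wild type and -0.10 in the knockout (log2), and TMM scaling moved every stage ratio up by 0.12 and 0.11. With TMM scaling 501 genes were called higher and 760 lower in the wild-type stage comparison, in place of 386 and 949, and the same numbers of granule genes were called.

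The makeup of the granule transcripts differed between libraries. In shares of the reads of the 6 genes, Ltf held 71.4% in the E15 wild-type library (interval 55.4% to 84.3%), 33.7% in the E15 knockout, 41.5% in the E18 wild-type and 39.9% in the E18 knockout library. Ngp held 2.38% (interval 0.0603% to 12.6%), 40.5%, 27.5% and 32.0% in the same order. Mpo held 19.0%, 16.6%, 7.77% and 0%, where 0 of 887 reads allows up to 0.415%. The E15 wild-type library therefore stood apart by its low Ngp share, and the E18 knockout library by the absence of Mpo reads.

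Per kilobase of exon, the E18 knockout library held 10.6 CPM per kb of Ngp, 8.97 of S100a9, 7.40 of S100a8, 4.67 of Ltf, 1.98 of Camp, 0.537 of Retnlg and 0.260 of Lcn2. In that order the counting intervals of Ngp and S100a9, of S100a9 and S100a8, and of Retnlg and Lcn2 overlapped, while Ltf stood below S100a8 and above Camp. The E18 wild-type library had Ngp and S100a9 on top as well, at 2.27 and 2.21 CPM per kb, followed by Ltf and S100a8 at 1.22 and 1.21. In the E15 knockout library Ngp led with 4.16 CPM per kb, above Ltf at 1.22. In the E15 wild-type library no gene exceeded the 0.559 CPM per kb of Ltf.

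Other genes of neutrophil granules and of mature neutrophils, 26 in 3 lists, mostly lay on the same side in both genotype comparisons. At E15, 12 of 15 listed genes had a higher CPM in the knockout library, and at E18 17 of 19, against 48.4% and 46.7% of all listed genes. Their median log2 ratios were 0.38 and 0.59, against -0.01 and -0.03 over all listed genes. These lists were drawn up with earlier results of these data known. At E15 Prtn3, Cd177, Hp, Mmp8 and Stfa1 had 0 wild-type reads, and at E18 Prtn3, Cd177, Stfa2 and Ly6g did. At those stages their counts came only from the knockout library, as those of Cxcr2 at E15 came only from the wild-type library. The counts are therefore a description and no separate evidence. Cd177, a surface glycoprotein stored in specific granules, had 0 and 9 reads at E15 and 0 and 53 at E18, at least 2.86-fold and 15.3-fold higher. Serpinb1a, an inhibitor of granule proteases, had 46 and 68 reads and then 66 and 201, a ratio of 2.64 at E18 (interval 1.99 to 3.54). Cd177 and Serpinb1a, 2 of the 8 that entered, were called higher at E18, where 2.88% of all tested genes were. At E15 0 of the 5 that entered were called.

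Mmp8, the neutrophil collagenase, had 0 and 17 reads (wild type, then knockout) at E15 and 60 and 124 at E18. It was at least 5.39-fold higher in the knockout at E15 and 1.79-fold at E18 (interval 1.31 to 2.48). The haptoglobin gene Hp had 0 and 7 reads and then 27 and 64. Hp, Mmp8 and Cd177 were called higher at E18 than at E15 in the knockout, and Mmp8 in wild type too, while Mmp9 was called lower at E18 in wild type (log2 -1.20). The most abundant gene of the lists, Mmp9, which encodes gelatinase B, had 9914, 5911, 5302 and 8057 reads, with log2 genotype ratios of -0.82 and 0.40. Mmp9 reads were thus lower in the knockout at E15, unlike those of Ngp and Ltf. Ceacam1, which led the specific granule list with 560, 704, 1243 and 1027 reads, had log2 ratios of 0.25 and -0.47, so it was lower in the knockout at E18 (ratio 0.717, interval 0.659 to 0.779).

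Some weaker genes of the lists are named here after their values were seen, and they went both ways. Prtn3, the azurophil protease proteinase 3, had 0 and 5 reads at E15 and 0 and 17 at E18, so the E18 knockout library had reads of one azurophil gene where Mpo had 0. Ly6g, the usual surface marker of mouse neutrophils, was listed at E18 with 0 wild-type and 6 knockout reads. Stfa1, a cysteine protease inhibitor with near-identical copies and therefore uncertain, had 0, 8, 5 and 43 reads. Cxcr2, a chemokine receptor of mature neutrophils, was listed at E15 with 38 wild-type and 0 knockout reads, at least 13.3-fold lower. Cxcr2 thus went against the granule genes at E15, as did Il1b, with 23 and 11 reads (ratio 0.455, interval 0.200 to 0.972). At E18 Il1b had 18 and 19 reads. Of the recruitment genes described below, Fpr1 had 35 and 8 reads at E18 (ratio 0.198, interval 0.079 to 0.435). Ccr1 had 20 and 0 reads at E18, so both were lower in the knockout library there.

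Of the 8 transcription factors of granulopoiesis looked up, 3 entered at E15 and 1 was called higher, and 2 entered at E18 and 1 was called higher. The shares over all tested genes were 3.55% called higher at E15 and 2.88% at E18. Cebpd, a C/EBP factor also induced in many cells by inflammation, had 68 and 1308 reads at E15, a ratio of 18.3 (interval 14.3 to 23.7), and 71 and 113 at E18. Runx1, required for the formation of blood stem cells, had 115 and 81 reads at E15 and 54 and 159 at E18 (log2 -0.495 and 1.103). Spi1, which encodes PU.1, had 55 and 104 reads at E15 and 3 and 30 at E18. Cebpe, the factor of the specific granule stage, was listed at E15 with 0 and 7 reads. Cebpd was high in the E15 knockout library alone, with 80.1 CPM there and 5.14 CPM in the E18 knockout library. Mpo was highest in the E15 knockout library too, but S100a8 and S100a9 were not. Ngp had 5.08 CPM in the E15 and 12.9 CPM in the E18 knockout library. A link between Cebpd and the granule genes was not tested.

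Genes of neutrophil recruitment did not follow the granule genes as a group. At E15, 10 of 19 entered, with 0 called higher, 2 called lower and a median of -0.21 (log2). The integrin chains Itgam (67 and 7 reads) and Itgal (78 and 13 reads) were the genes called lower. Among all tested genes 3.32% were called lower at E15 and 3.92% at E18. At E18, 9 entered, with 0 called higher and Selplg, the ligand of P-selectin on leukocytes, called lower (122 and 51 reads, log2 -1.16), and the median was 0.05. Csf3r, the receptor of the granulocyte growth factor G-CSF, had 329 and 452 reads at E15 and 415 and 589 at E18 (log2 0.37 and 0.29). The most abundant gene, the chemokine Cxcl12 made by the vessel wall, had log2 ratios of -0.19 and -0.44. Between stages, Cxcl12 was called higher at E18 in both genotypes (1.344 and 1.096), Cxcl1 (1.11) and Cxcr4 (1.46) were called higher in the knockout, and Itgb2 (-1.52 and -1.03) and Selplg (-1.34 and -2.45) were called lower in both, and Itgal (-1.38) in wild type.

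Of the phagocyte NADPH oxidase, the enzyme of the respiratory burst, Cybb and Ncf4 are given here. Cybb, which encodes the catalytic subunit, had 81 and 39 reads at E15 (log2 -0.87) and 12 and 90 at E18, a ratio of 6.51 (interval 3.55 to 13.1). Ncf4, a cytosolic subunit gene, had 63 and 27 reads at E15 (log2 -0.93) and 11 and 59 at E18 (log2 1.22). Both were called higher at E18 and were not called at E15. The difference between the stages was not tested. Macrophages and microglia also use these subunits, and their markers had a median of -0.73 at E15 and 0.80 at E18.

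Receptors that bind proteins encoded by the genes described here showed no shared direction, with 0 of 5 called higher and 1 of 5 called lower at either stage. Among all tested genes 3.32% were called lower at E15 and 3.92% at E18. The one called at E15 was Lrp1 (1376 and 663 reads, log2 -1.11) and the one called at E18 was Slc22a17, a receptor of lipocalin-2 (77 and 17 reads, log2 -1.51). Bsg, the basigin gene and an abundant transcript of brain endothelium, had log2 ratios of 0.30 and 0.16. Tlr4, which recognises endotoxin and binds calprotectin, had log2 ratios of -0.76 and -0.08.

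Markers of other blood cells moved in part with the granule genes and in part against them. Haematopoietic markers, 11 of 11 listed, summed to 1260 CPM in the wild-type and 1082 CPM in the knockout library at E15, and to 867 and 834 CPM at E18. Among these markers Lcp1 supplied most of the sum, with 907 and 801 CPM at E15 and 685 and 598 CPM at E18. Of 9 that entered at E15, 1 was called higher (Ikzf1, 33 and 87 reads) and 2 lower, Ptprc (286 and 118 reads) and Vav1 (166 and 77). Of 7 that entered at E18, 1 was called higher (Coro1a, 233 and 591 reads) and 0 lower. Shares over all tested genes were 3.55% higher and 3.32% lower at E15, and 2.88% and 3.92% at E18. Microglia and macrophage markers, 12 of 13 listed at both stages, summed to 668 and 310 CPM at E15 and to 43.1 and 78.9 CPM at E18, with 1 called higher and 5 lower at E15 and 4 higher and 0 lower at E18. P2ry12 and Fcrls, 2 microglial genes, were called lower at E15 (log2 -1.83 and -1.59) and higher at E18 (1.24 and 2.35). At E15 the summed granule genes were therefore higher in the knockout while the summed microglial markers were lower, and the haematopoietic genes called went both ways.

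Mast cell and basophil markers moved partly with the granule genes. Their sum was 202 and 254 CPM at E15 and 199 and 188 CPM at E18, with Kit and Gata2, which other cells also express, supplying most reads. Of 5 that entered at each stage, 1 was called higher at E15 and 3 at E18, where 3.55% and 2.88% of all tested genes were. Log2 ratios lay above 0 for 4 of the 5 at E15 and for 3 of the 5 at E18. Cpa3, a mast cell protease gene, was called at both, with 11 and 114 reads at E15 and 0 and 252 at E18. Tpsb2, a mast cell tryptase gene, had 0 and 106 reads at E18, and Hdc, which makes histamine, 39 and 129. The chymase gene Cma1, too weak to enter, had 0 and 35 reads at E15 and 0 and 7 at E18. Cpa3, Tpsb2 and Cma1 thus had 0 wild-type reads each at E18, and Cpa3 and Tpsb2 entered there only through the knockout library. Prss34 and Hdc went the other way at E15, with 37 and 3 reads and with 263 and 199 reads. Eosinophil markers were nearly absent, with 1 of 9 listed (Siglecf, 12 and 4 reads at E15). Monocyte markers summed to 897 and 766 CPM at E15 and 1309 and 917 CPM at E18. Fn1 alone supplied most of that, with 848 and 740.5 CPM at E15 and 1258 and 829 CPM at E18, so the sum mainly follows this gene. Within that list the lysozyme gene Lyz2, which neutrophils also express, had 545 and 250 reads at E15 and 861 and 1863 at E18. Of 6 that entered at E15, 0 were called higher and 3 lower, namely Lyz2, Ccr2 (91 and 23 reads) and Vcan (106 and 26). Of 4 that entered at E18, 0 were called higher and 1 lower, F13a1 (40 and 12 reads). Among all tested genes 3.32% were called lower at E15 and 3.92% at E18. Lymphocyte markers summed to 11.8 and 10.4 CPM and then 7.08 and 7.91 CPM. The part of these cells in the granule gene differences was not tested.

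Among the remaining lists, erythroid markers summed to 411 and 521 CPM at E15 and 921 and 723 CPM at E18, and platelet markers to 38.8 and 41.7 CPM and then 15.5 and 10.9 CPM, with 3 of the 7 platelet genes listed at both stages at 0 in the E18 knockout library. Mural cell markers summed to 7323 and 4887 CPM at E15 and 9325 and 11642 CPM at E18, and neuronal markers to 93.4 and 51.0 CPM and then 50.6 and 45.6 CPM. The granulopoiesis transcription factors summed to 15.5 and 92.0 CPM at E15, of which Cebpd supplied most in the knockout, and to 6.71 and 14.6 CPM at E18. Carry-over of blood and other tissue into the preparations was not tested.

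**Figure D4:**
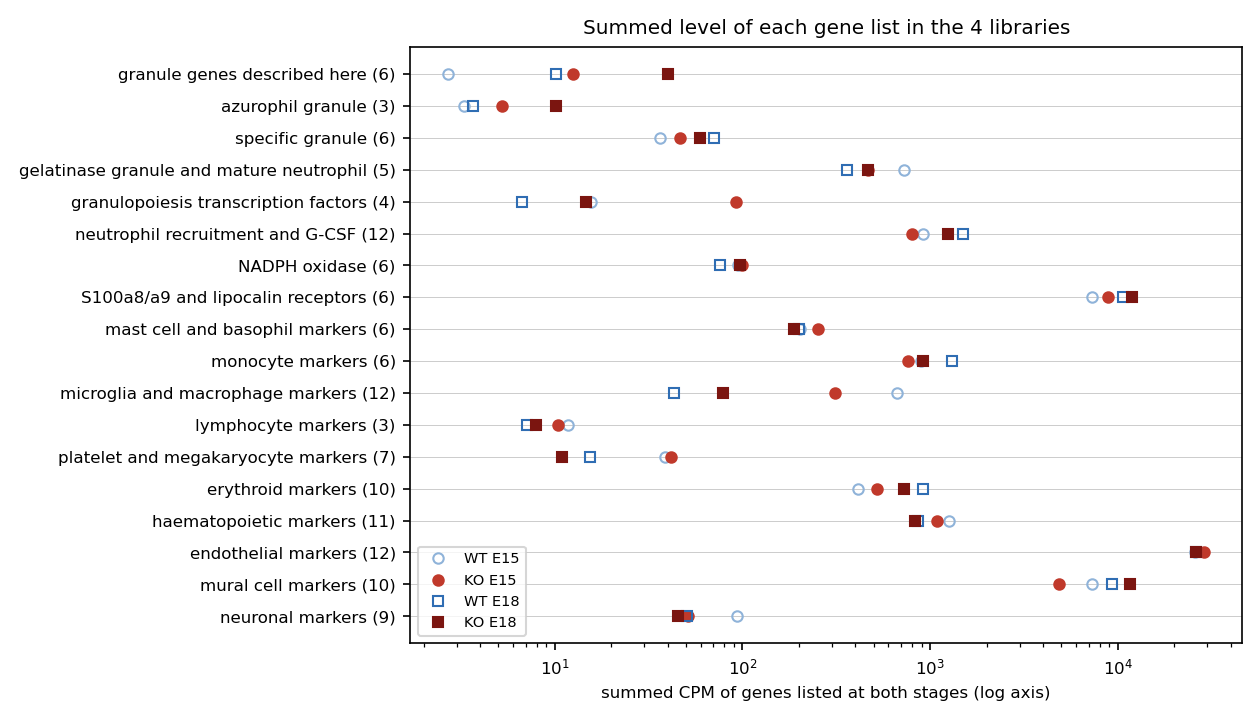
Summed CPM (log axis) of the 6 granule genes described here and of the other genes of each list that were listed at both stages (their number in parentheses; granule genes described here are left out of the other lists), with circles for E15, squares for E18, open symbols for wild type and filled ones for the knockout. The granule genes run from 2.70 CPM in the E15 wild-type to 40.3 CPM in the E18 knockout library, whereas endothelial markers stay between 25777 and 28897 CPM.

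Genes with the most similar profile were sought among 13871 genes with at least 50 reads over the 4 libraries. Likeness was the root mean square difference, over 4 libraries, between the centred log2 CPM (pseudocount 1 CPM) of a gene and that of the granule gene sum. The 10 nearest were Tnfrsf9 (0.361), Fstl5 (0.412), Thbs2 (0.430), Gm17745 (0.460), Mfsd4b4 (0.461), Trim10 (0.476), Marco (0.518), Zfp953 (0.524), Shc4 (0.538) and Mmp8 (0.541). Tnfrsf9, the costimulatory receptor 4-1BB, had 7 and 66 reads at E15 and 56 and 169 at E18. Marco, a scavenger receptor of macrophages, had 15, 62, 40 and 158. Mmp8 was the only gene of the neutrophil lists among them. By the same measure Ngp (0.231) and Ltf (0.407) lay close to the sum they are part of, and Mpo (1.53) far from it. With 4 libraries such likeness is a description of these profiles.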

How the data were processed

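RNA of mouse brain endothelial cells was sequenced as 1 library for each genotype and stage. The authors deposited raw read counts per gene, not normalized, per the file headers. Their CPM columns, per the file headers and the values, set a count of 0 to 0.5 read. The deposited log2 fold columns, per the file headers, compare 1 knockout library with 1 wild-type library. The deposited p-value columns, per the file headers, come from that same comparison, and the labels do not name the test. Tools in the submitters' processing notes, given with no role, are TopHat2 2.0.12, HTSeq 0.6.0 and Bowtie2 2.2.3, and the build named there is mm9. Of 20143 identifiers in GENCODE M21, 18126 (90.0%) had identical GRCm38 coordinates in the tables, Retnlg not among them. Strand use in counting is not stated in the labels. Genes listed in a table had at least 2 reads over its libraries.

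CPM was computed here from the deposited counts and the totals of the listed genes, and exon lengths were taken from GENCODE. Scaling alternatives used edgeR 4.0.16 (TMM) and DESeq2 1.42.0 size factors; neither was used for a test. Calls across all genes are at a 2-fold ratio, and no test was made. Intervals are at 95%, and a count of 0 is set to a floor of 3 reads per library for bounds. Checked on simulated counts for 10210 genes at E15 and 9773 at E18, the procedure recovered 100% of 4-fold changes with 0 false calls, under counting error alone. Only genes with at least 5 CPM over the pair were scored. All listed granule genes at E15, and all but Ngp and Ltf at E18, lay below that level, so the check does not cover them. The members and the 18 gene lists were chosen with earlier results of these data known. The rule for named genes was all members, the called genes and the most abundant gene of each list, the 10 nearest profiles, and Ucp2, Xist and Ddx3y; lists of other cells are given here mainly as sums. Other genes were named after their values were seen. Alternatives were 2 other scalings, 2 pseudocounts, 2 filters and sums without single genes. The sum without Mpo was added after the values were seen. Leaving out replicates was not possible with 1 library a group. One listed gene is not reported here.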

Additional observations from a re-analysis of the deposited data

Results flagged for a closer look

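Mpo moved in opposite directions between the genotypes at the 2 stages. Its log2 ratio (CPM plus 1) of knockout to wild type was 1.02 at E15 (8 and 34 reads) and -0.84 at E18 (15 and 0 reads), and the counting intervals of the plain ratios lay on opposite sides of 1. P2ry12, a microglial receptor gene, had log2 ratios of -1.83 at E15 and 1.24 at E18. Fcrls, another microglial gene, had -1.59 and 2.35. Each direction rests on 1 pair of libraries, and the difference between the stages was not tested for any of the 3 genes.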

How the results depend on the processing

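Every summed ratio stayed above 1 under the alternatives tried. With a pseudocount of 5 CPM the members called were 0 at E15 (1 with 1 CPM), 2 at E18 (4), 0 between wild-type stages (1) and 1 between knockout stages (4). With 0.1 CPM they were 2 at E15 and 2 between wild-type stages. Over all genes 0.1 CPM gave 613 higher and 608 lower of 12633 at E15, and 533 and 1220 of 12515 between wild-type stages. Without a filter 2 members were called at E15. With a filter of 5 CPM 0 were called between wild-type stages, where 0 members entered and 281 of 10484 genes were called higher and 669 lower. Leaving out Ltf, the gene with the most reads, moved the summed ratio to 10.8 at E15 and 7.67 between wild-type stages, where Ltf supplied 30 of 42 reads in the E15 wild-type library. Leaving out Mpo, added after the values were seen, gave 3.85 between knockout stages. The median of the members' own ratios, which carries the pseudocount of 1 CPM, was 1.60 at E15, 2.197 at E18, 1.79 between wild-type stages and 2.73 between knockout stages. The other 29 alternatives stayed within the counting interval or within 1.5 times the count. Over all genes, a pseudocount of 5 CPM left 163 called higher and 75 lower at E15 (448 and 420 with 1 CPM) and 42 and 82 at E18 (356 and 484), and no filter gave 660 and 756 at E15 and 567 and 876 at E18. At E18, 0.1 CPM gave 561 and 731, and a filter of 5 CPM 211 and 275. Between stages, 5 CPM left 143 and 286 in wild type (386 and 949) and 178 and 601 in the knockout (541 and 1363). No paired analysis was possible because each group holds 1 library. Depth limits the members with few reads: a count of 0 allows 0.193 CPM in the E15 wild-type and 0.157 CPM in the E18 wild-type library.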

Other observations

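Genes lying near the granule genes were looked up. Between Camp and Ltf on chromosome 9, 26 other genes were listed, and of the 18 that entered at E15 1 was called higher in the knockout and 0 lower (median log2 -0.09), where 3.55% of all tested genes were called higher. At E18, 3 of 20 were called higher and 1 lower (median 0.05), where 2.88% of all tested genes were called higher and 3.92% lower. Those called higher were Lrrc2, Nradd and Ptpn23. Of the other S100 genes of chromosome 3, 7 were listed and 4 entered at each stage, with 0 called in either genotype comparison (medians 0.08 and 0.13). S100a16, the most abundant of them and named after its values were seen, had 10227 and 9597 reads at E15 and 10252 and 13816 at E18. S100a11 had 311 and 315 reads at E15 and 512 and 577 at E18.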
